A study of Mus musculus with 6 samples.

Results

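The MS4A4 and MS4A6 genes of the mouse, Ms4a4b, Ms4a4c, Ms4a4d, Ms4a6b, Ms4a6c and Ms4a6d, encode small proteins that cross the cell membrane several times. Every probe set whose only gene symbol in the platform's annotation is one of these 6 was taken, which gave 12 probe sets of 45037 on the array without controls. Earlier results of the same arrays were known when the 6 genes were chosen, among them the difference of Ms4a4c, so the differences between groups given here for them are a description without a test. The values are MAS5 signals, which summarise the probes of a probe set on a linear scale, from Affymetrix arrays of regulatory T cells (Treg), a CD4 T cell lineage marked by the transcription factor Foxp3.

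All cells were CD4+ Foxp3+ cells from mesenteric lymph nodes of Balb/c mice aged 4 to 6 weeks that carried a Foxp3 GFP reporter. The iTreg group (3 arrays) came from Tbmc mice after 1 week of ovalbumin given orally at 1%, and was gated as Nrp-. Tbmc mice have a single T cell receptor, specific for ovalbumin, and a single B cell receptor, and lack the recombinase that would make others. The WT group (3 arrays) held total Treg of wild-type Foxp3 GFP mice. WT replicate 1 also bears the Nrp- cell type label, and the strain label of iTreg replicate 1 names neither TBmc nor the reporter. Since the groups differ at once in genotype, receptor, feeding and gate, these cannot be told apart. Nothing in the labels ties replicates to separate mice or pools, so the spread between arrays may be technical in part.

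The MS4A family takes its name from these membrane-spanning proteins and includes MS4A1, the B cell antigen CD20, and MS4A2, the beta chain of the IgE receptor of mast cells. MS4A4B is a T cell protein known to associate with GITR, a costimulatory receptor of Treg. Other members are known mainly from monocytes and macrophages, and Ms4a4c is among the genes that interferons induce. In the RefSeq annotation of GRCm38.p6 all 6 genes lie on chromosome 19 in the order Ms4a4c, Ms4a4b, Ms4a6c, Ms4a6b, Ms4a4d and Ms4a6d, with 1 other protein-coding gene, Gm8369, between Ms4a6c and Ms4a6b. The stretch is flanked by the family members Ms4a4a and Ms4a2.

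Ms4a4c was the member whose groups lay apart: both of its probe sets had higher signals on all 3 iTreg arrays than on any WT array, with mean signals 4.24 and 4.44 times as high. Ms4a4b and Ms4a6b had signals far above background in both groups, and their groups overlapped on each probe set. The probe sets of Ms4a6c differed in sign. Ms4a4d lay near background and Ms4a6d within it. Background here is the highest signal, 28.5, that 27 control probe sets for bacterial transcripts not added to these samples reached on any array.

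Of the 12 probe sets, 9 passed the expression filter (a mean over all 6 arrays at or above the 40th percentile) and 3, those of Ms4a6d, did not. In limma's fit over 27022 probe sets, 0.0259% were called at a Benjamini-Hochberg adjusted p under 0.05, and 0 of the 9 members were. Groups did not overlap, with iTreg higher, in 4.54% of the tested probe sets and in 2 of the 9 members, both of Ms4a4c; with iTreg lower the values were 6.89% and 0. These member counts follow from how the genes were chosen. The log2 difference, iTreg minus WT, was positive for 8 of all 12 probe sets and negative for 4, with a median of 0.14, against 22324 positive and 22713 negative with a median of -0.003 over all 45037. Differences are on the log2(signal + 16) scale, which understates the change of low signals.

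**Figure D1:**
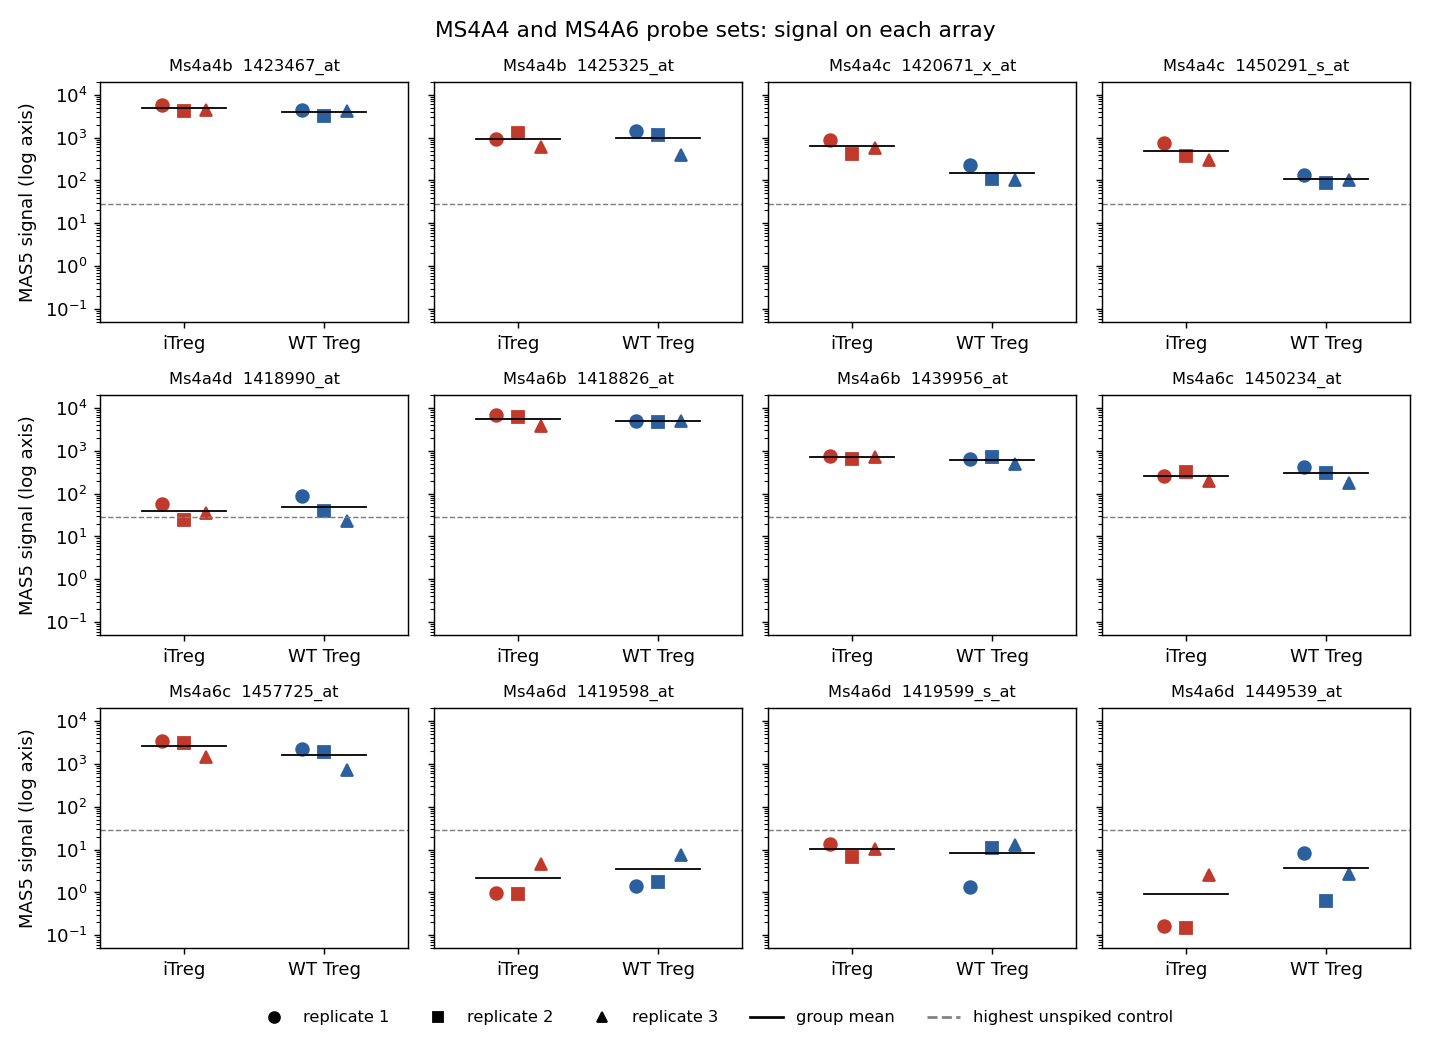
MAS5 signal (log axis) of each of the 12 probe sets on the 3 iTreg arrays (red) and 3 WT Treg arrays (blue); symbols give the replicate number, bars the group mean and the dashed line the highest unspiked control signal of 28.5. The Ms4a4c probe sets are the ones above the dashed line whose groups lie apart, and all Ms4a6d points lie below it.

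Ms4a4b, the GITR-associated T cell member, had on probe set 1423467_at signals of 5915, 4134 and 4478 in iTreg replicates 1, 2 and 3 and of 4425, 3118 and 4270 in WT replicates 1, 2 and 3. The means were 4842 ± 945 (SD, n = 3) and 3938 ± 714. The highest array was iTreg replicate 1 and the lowest WT replicate 2, with the other arrays of both groups intermixed. The log2 difference was 0.30 with a standard error of 0.27. On the second probe set, 1425325_at, the signals were 953, 1306 and 590 in iTreg and 1453, 1159 and 398 in WT, and the difference was 0.039 with a standard error of 0.45. There the replicate 3 array was the lowest of each group, and the difference turned to -0.52 without WT replicate 3 and to -0.22 without iTreg replicate 2. The replicate 3 arrays also had the brightest spike-in control after scaling, with signals of 29968 and 32233 for a cre probe set against 17053 to 22700 on the other 4. The part of this in the values was not tested.

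Ms4a6b, a relative of the MS4A6 branch, had on probe set 1418826_at signals of 6868, 6244 and 3711 in iTreg and of 4848, 4766 and 5002 in WT. The WT arrays lay within a narrow band, with an SD of 120, and iTreg replicate 3 lay below it while the other iTreg arrays lay above. The difference was 0.15 with a standard error of 0.28. It was -0.017 without iTreg replicate 1 and 0.43 without iTreg replicate 3. On probe set 1439956_at the signals were 767, 635 and 716 in iTreg and 645, 705 and 480 in WT, a difference of 0.22 with a standard error of 0.29. Here too the groups overlapped, and WT replicate 3 was the lowest array.

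Ms4a4c, an interferon-inducible member, had on probe set 1420671_x_at signals of 869, 408 and 584 in iTreg and of 232, 107 and 99.9 in WT. The lowest iTreg array, replicate 2, was above the highest WT array, replicate 1. The group means were 620 ± 233 (SD, n = 3) and 146 ± 74.4, which is 2.0 higher in iTreg on the log2 scale (standard error 0.41). Probe set 1450291_s_at gave 753, 382 and 293 in iTreg and 134, 85.2 and 103 in WT. Its groups lay apart as well, with iTreg replicate 1 highest on both probe sets, and WT replicate 1, the array with the Nrp- label, highest of the WT arrays on both. The difference was 1.91 with a standard error of 0.41. Both probe sets are assigned to the same gene and are not independent. Their name endings, _x_at and _s_at, mark probes that can match other transcripts as well, and the part of such transcripts in the signals was not tested.

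The difference of Ms4a4c ranged from 1.73 to 2.35 on 1420671_x_at and from 1.53 to 2.18 on 1450291_s_at when each array was left out in turn. It was 2.08 and 1.68 without both arrays with label doubts, and 1.81 and 2.17 without both replicate 3 arrays. In none of these settings, nor in the other alternatives run, was either probe set called at an adjusted p under 0.05 by limma.

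**Figure D2:**
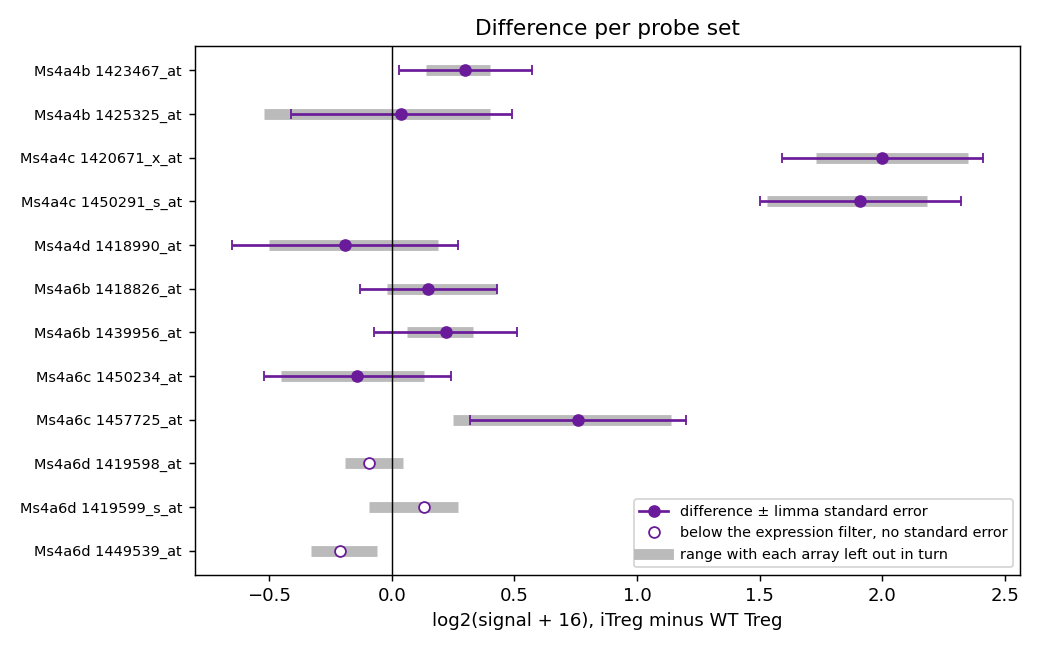
Log2(signal + 16) difference, iTreg minus WT Treg, of each probe set with its limma standard error (filled points); open points are probe sets below the expression filter. Grey bars span the values with each array left out in turn: those of Ms4a4c run from 1.53 to 2.35 over both probe sets, while those of Ms4a4d, of 1425325_at, 1418826_at and 1450234_at and of 2 Ms4a6d probe sets cross 0.

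Ms4a4b and Ms4a4c are neighbours on the chromosome, and the bases before their annotated starts are alike, although the signals of Ms4a4b overlapped between groups on both of its probe sets. RefSeq sequences for GRCm38.p6 were matched for 5 of the 6 genes. Aligned end to end, the 250 bases before the starts of Ms4a4b and Ms4a4c had 185 identical bases, 74% of the window, and their longest identical run had 20 bases. The other pairs had 50.8% to 59.6% of the window. That share counts bases left unaligned as different. Among aligned bases only, Ms4a6b and Ms4a6c had 149 identical of 175 and Ms4a4b and Ms4a4c 185 of 231, so the Ms4a4 pair was not the more alike by that measure. The windows of this pair, both on the plus strand and written 5′ to 3′, are shown because the pair holds the gene whose groups lay apart and its closest neighbour in sequence; capitals mark the longest shared run.
Ms4a4c, chr19:11407411-11407660: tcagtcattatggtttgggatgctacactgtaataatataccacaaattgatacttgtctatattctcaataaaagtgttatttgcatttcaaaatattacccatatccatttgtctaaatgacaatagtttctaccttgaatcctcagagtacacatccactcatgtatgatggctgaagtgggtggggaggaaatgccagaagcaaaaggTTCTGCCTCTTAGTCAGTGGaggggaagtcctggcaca
Ms4a4b, chr19:11443308-11443557: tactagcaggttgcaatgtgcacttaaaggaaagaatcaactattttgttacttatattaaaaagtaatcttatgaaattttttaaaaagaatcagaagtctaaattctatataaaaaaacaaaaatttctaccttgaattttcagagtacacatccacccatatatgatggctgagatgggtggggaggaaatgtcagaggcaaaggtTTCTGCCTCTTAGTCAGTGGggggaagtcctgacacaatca
The run lies 38 to 19 bases before the start of Ms4a4c and 41 to 22 bases before that of Ms4a4b.

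Ms4a6b and Ms4a6c shared a longer run of 48 bases on the plus strand, which lies 118 to 71 bases before the start of Ms4a6b and 49 to 2 bases before that of Ms4a6c. It is shown because both genes had a probe set with a signal of at least 701 on every array, and it is written whole in capitals.
Ms4a6b, chr19:11518441-11518488, and Ms4a6c, chr19:11469319-11469366: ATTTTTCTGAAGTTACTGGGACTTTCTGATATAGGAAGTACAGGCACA
Motifs of interferon-activated and ETS factors were searched on both strands of the 250-base windows. The interferon-stimulated response element, GAAA repeated after any 2 bases, was found in 2.98% of 32851 windows of all genes and in 0 of the 5 members, and the interferon gamma activated site TTCNNNGAA in 7.02% and in 0 members. The ETS core CAGGAAGT was found in 2.69% and in 1 member, Ms4a6b. The first pair of motifs can share the letters GAA. A window without a match shows only that these letters are not in it.

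Ms4a6c, a member known from monocytes, had probe sets that did not go together. On 1457725_at the signals were 3394, 3005 and 1434 in iTreg and 2239, 1876 and 701 in WT, a difference of 0.76 with a standard error of 0.44. The groups overlapped because iTreg replicate 3 lay below WT replicates 1 and 2, and in each group the replicate 3 array was lowest. The difference fell to 0.25 without WT replicate 3 and was 1.14 without iTreg replicate 3; without both it was 0.64. On 1450234_at the signals were 262, 318 and 201 in iTreg and 418, 302 and 180 in WT, a difference of -0.14 with a standard error of 0.38. That sign turned to 0.13 without WT replicate 1 and to 0.025 without iTreg replicate 3. On the log2 scale the gap between the probe sets, 1450234_at minus 1457725_at, averaged -3.18 in iTreg and -2.28 in WT. It was -3.62, -3.17 and -2.74 on the iTreg arrays and -2.38, -2.57 and -1.87 on the WT arrays, so every iTreg array had a wider gap than any WT array. For Ms4a4b, Ms4a4c and Ms4a6b the gaps overlapped between groups. How often such gaps lie apart over all genes was not computed. The probe sets thus gave unequal differences within the same arrays, and no direction is given for the gene.

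Ms4a4d had a single probe set, with signals of 56.6, 23.8 and 35.3 in iTreg and 86.7, 38.6 and 23.5 in WT. Of the 6 arrays 4 lay above 28.5, with iTreg replicate 2 and WT replicate 3 below it. The difference was -0.19 with a standard error of 0.46, and it was 0.19 without WT replicate 1. The highest array of both groups was replicate 1.

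Ms4a6d, a gene of macrophages, had 3 probe sets with signals between 0.147 and 13.5, all within the range of the unspiked controls on every array. Its differences of -0.093, 0.13 and -0.21 are between values at background and have no order. A low level of the RNA was not detectable here.

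The signals of other MS4A genes were also at background. Of the 15 other family members and TMEM176 relatives listed, 11 had a probe set with that symbol alone, and 9 of these, Ms4a1 (CD20), Ms4a2, Ms4a3, Ms4a7, Ms4a8a, Ms4a10, Ms4a13, Ms4a15 and Ms4a18, had no signal above 28.5 on any array. The 4 probe sets of 3 genes that passed the filter gave 0 calls in limma in either direction and 0 at an unadjusted p under 0.05, where 6.21% of all tested probe sets lay under it. The ones with the smallest p were a probe set of Tmem176a, a relative of the family (-0.29, limma adjusted p = 0.923), Ms4a3 (-0.27, adjusted p = 0.929) and Tmem176b (0.18, adjusted p = 0.979). Tmem176b signals were 8.42, 20.3 and 135 in iTreg and 45.9, 10.6 and 40.3 in WT, so a single array, iTreg replicate 3, held the highest value.

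GITR, the partner described for MS4A4B, is encoded by Tnfrsf18. Its signals were 1142, 1108 and 711 in iTreg and 1673, 1944 and 2202 in WT. All iTreg arrays lay below all WT arrays, a difference of -0.99 with a standard error of 0.29 that did not pass over all probe sets (limma adjusted p = 0.584). Of 7 genes listed for GITR signalling 5 were measured, on 9 tested probe sets, 8 with a negative and 1 with a positive difference and a median of -0.35, against -0.022 over all tested probe sets. None was called in limma, and 1 was lower at an unadjusted p under 0.05, where 3.77% of all tested probe sets were. The signalling adaptors Traf1 and Traf5, which bind such receptors, differed by -0.50 on 1445452_at (limma adjusted p = 0.91) and by -0.35 on 1448861_at (adjusted p = 0.911), both with overlapping groups. The other Traf1 probe set, 1423602_at, gave 975, 1018 and 930 in iTreg and 1049, 1138 and 1132 in WT, without overlap, a difference of -0.18 (limma adjusted p = 0.942).

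Type I interferon response genes were set beside Ms4a4c because interferons induce it. Of 32 listed genes 28 were tested, on 42 probe sets, 32 with a positive and 10 with a negative difference and a median of 0.39. None was called in limma; at an unadjusted p under 0.05, 5 were higher and 3 lower, where 2.44% and 3.77% of all tested probe sets were. Those with the smallest p were Gbp3, a guanylate-binding GTPase, by -1.37 (limma adjusted p = 0.356), Ifit1, an inhibitor of viral translation, by 1.49 (adjusted p = 0.382) and Oas3, an oligoadenylate synthetase, by -1.83 (adjusted p = 0.543). The signals of Oas3 were 2.64, 1.94 and 2.03 in iTreg and 8.84, 113 and 69.1 in WT, above 28.5 on 2 arrays only, so the size of its difference depends on the pseudocount. Signals of Ifit1 were 1274, 1433 and 1291 in iTreg and 827, 280 and 424 in WT. Like Ms4a4c, it was highest in WT replicate 1 among the WT arrays. On the log2 scale, with the brightest probe set of each of 29 genes, the iTreg arrays averaged 8.18, 8.28 and 7.86 over the list and the WT arrays 8.25, 7.52 and 7.50. WT replicate 1, the array with the Nrp- label, lay within the range of the iTreg arrays on this mean and below them on both Ms4a4c probe sets. These are the places of a single array, and nothing follows from them. The part of the interferon response in the Ms4a4c difference was not tested.

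**Figure D3:**
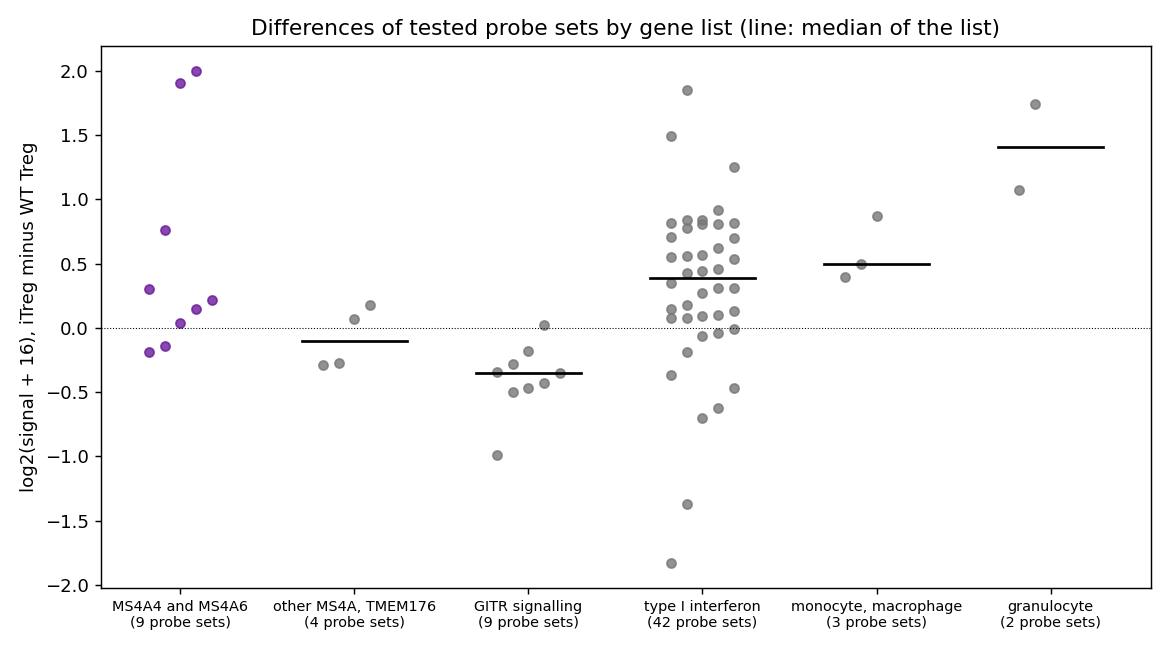
Log2(signal + 16) difference, iTreg minus WT Treg, of each tested probe set of the MS4A4 and MS4A6 genes (purple) and of 5 gene lists (grey, with the list's median as a line). The Ms4a4c probe sets, at 2.0 and 1.91, lie above the other 7 members, and the GITR signalling median is -0.35 and the interferon median 0.39.

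Markers of other lineages had low signals, and the summed signal of the granulocyte markers lay higher on every iTreg array than on any WT array, as Ms4a4c did. That of monocyte and macrophage markers overlapped between groups. The brightest probe sets of 8 of 10 monocyte and macrophage markers summed to 123 to 186 per iTreg array and to 83.3 to 128 per WT array. Cd14, Adgre1 and Cx3cr1 never exceeded 28.5, and Lyz2, lysozyme, gave 44.6, 44.2 and 23.1 in iTreg and 21.9, 9.01 and 8.79 in WT. Cd68 gave 74.4, 67.8 and 21.5 in iTreg and 61.4, 23.8 and 16.4 in WT, with overlapping groups. Of the 3 tested probe sets of this list, those of Lyz2, Cd68 and Itgam, only that of Lyz2 had groups apart. Its gap lay within background, between 23.1 on iTreg replicate 3 and 21.9 on WT replicate 1, and 2 arrays exceeded 28.5. Those of 4 of 4 granulocyte markers summed to 67.1 to 183 in iTreg and to 22.1 to 40.5 in WT. Camp and Csf3r never exceeded 28.5, and S100a9, a calcium-binding protein of neutrophils, gave 51.8, 78.5 and 33 in iTreg and 13.1, 1.37 and 0.808 in WT (1.74, limma adjusted p = 0.316). S100a8 gave 16.8, 91.2 and 18.1 in iTreg and 1.59, 9.44 and 12.7 in WT, above 28.5 on 1 array. Every WT value of these 4 markers was below 28.5, unlike those of Ms4a4c. Csf3r had the lower mean in iTreg, 1.52 against 5.69. The part of these cells in the Ms4a4c difference was not tested. Ms4a4c was highest in replicate 1 of each group on both probe sets. So were Lyz2 and the monocyte and macrophage sum, at 186, 173 and 123 in iTreg and 128, 86.9 and 83.3 in WT. S100a9 was highest in iTreg replicate 2 and WT replicate 1. Lyz2 and the sum were lower in replicate 3 than in replicate 2 of both groups. In WT these Lyz2 values, 9.01 and 8.79, were below 28.5 and the sums, 86.9 and 83.3, were close. Nothing follows from their order. For Ms4a4c the order of replicates 2 and 3 varied. Replicate 3 lay above replicate 2 on 1420671_x_at in iTreg (584 and 408) and on 1450291_s_at in WT (103 and 85.2). It lay below replicate 2 on 1450291_s_at in iTreg (293 and 382) and on 1420671_x_at in WT (99.9 and 107). In bulk samples fewer cells of a type and less RNA per cell cannot be told apart.

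B cell markers, 7 of 8, summed to 96 to 136 in iTreg and 99.8 to 138 in WT, with Blnk, Cd22, Ms4a1 and Pax5 never above 28.5. Dendritic cell markers, 6 of 7, summed to 82.7 to 204 and 77.2 to 105. Only Zbtb46 among them ever exceeded 28.5, with 186 on iTreg replicate 3. NK cell markers, 3 of 4, summed to 15 to 77.1 and 51.5 to 79, with only Nkg7 ever above 28.5. Mast cell and basophil markers, 4 of 4, summed to 25.1 to 36.6 and 18 to 45.2, and none exceeded 28.5. The CD8 markers Cd8a and Cd8b1 summed to 101 to 225 in iTreg and 73.2 to 107 in WT. Cd8b1, a chain of the CD8 coreceptor, gave 69.6, 132 and 70.1 in iTreg and 63.3, 33.7 and 34 in WT on 1426170_a_at. These were higher on every iTreg array than on any WT array, as for Ms4a4c (0.82, limma adjusted p = 0.85). Cd8a, on its brightest probe set 1425335_at, gave 30.9, 93 and 33.5 in iTreg and 43.8, 39.8 and 39.2 in WT. Its groups overlapped, with iTreg replicates 1 and 3 below every WT array (0.15, limma adjusted p = 0.975). The part of CD8 T cells in the Ms4a4c difference was not tested. All 5 measured T cell markers (Cd3d, Cd3e, Cd3g, Cd4 and Cd5) exceeded 28.5 on every array. The Treg markers Foxp3, Il2ra, Ctla4 and Ikzf2 summed to 5310 to 6685 in iTreg and 9316 to 10501 in WT, without overlap. Il2ra entered this sum with 1169, 2191 and 2256 in iTreg and 3537, 4656 and 5860 in WT (1420691_at). Ctla4 overlapped between groups, with 3895, 1850 and 1811 in iTreg and 3478, 2890 and 2612 in WT. Foxp3 overlapped as well, as did the further probe sets 1420692_at of Il2ra and 1456956_at of Ikzf2. Groups lay apart on 3 of the 7 tested probe sets. Of the 7 tested probe sets of these 4 markers 6 had a negative difference, with a median of -0.56, and 0 were called in limma. At an unadjusted p under 0.05, 3 were lower, of Il2ra and Ikzf2, where 3.77% of all tested probe sets were. Foxp3, the gene of the gate, exceeded 28.5 on 3 of 6 arrays, with 31.7, 54.6 and 15.6 in iTreg and 26.2, 45.7 and 9.16 in WT. Il2ra, the IL-2 receptor alpha chain, differed by -1.35 on its brighter probe set (limma adjusted p = 0.37). Median signals per array were 24.3 to 27.4 in iTreg and 21.1 to 32.3 in WT. The log2 ratio of 3′ to 5′ Gapdh signals, a measure of RNA quality, was 3.01, 2.46 and 3.35 on the iTreg arrays and 2.26, 2.49 and 2.33 on the WT arrays. It was higher on iTreg replicates 1 and 3 than on any WT array, and its part in the Ms4a4c difference and in the Ms4a6c gap was not tested.

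The genes whose pattern over the 6 arrays was most like that of a member were picked by Pearson's r on the log2 scale among 21059 tested probe sets of other named genes, as a description. For Ms4a4c (1420671_x_at) they were Abtb2 (r = 0.991), the T-box transcription factor gene Eomes (r = 0.990) and the ataxin gene Atxn3 (r = 0.989). Eomes signals were 110, 46.3 and 60.4 in iTreg and 29.5, 13.2 and 12.4 in WT, with iTreg replicate 1 and WT replicate 1 the highest of their groups as for Ms4a4c. WT replicates 2 and 3 of Eomes lay below the background of 28.5, and Atxn3 exceeded it on iTreg replicate 1 only. Abtb2 had 2239, 1628 and 1700 against 1116, 892 and 813. An r above 0.9 with Ms4a4c was reached by 0.921% of the 21059.

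For Ms4a4b (1423467_at) the closest was Irf9, a subunit of the interferon-activated factor ISGF3 (r = 0.995), with signals of 803, 551 and 581 in iTreg and 570, 398 and 538 in WT. It was followed by Rcbtb2 and Rprml (both r = 0.991), whose signals were mostly within the range of the unspiked controls. For Ms4a6b (1418826_at) they were Napg, a vesicle fusion factor (r = 0.997), Pcyox1 (r = 0.994) and the small GTPase gene Rab4a (r = 0.990). For Ms4a6c (1457725_at) they were Tut4, an RNA uridyltransferase (r = 0.995), the antiviral zinc finger gene Zc3hav1 (r = 0.993) and the choline kinase gene Chkb (r = 0.993). For Ms4a4d, itself near background, they were Wac, Zfp36l2 and Tradd (r = 0.995, 0.994 and 0.992). With 6 arrays and this many candidates, values of this size were found for each of the 5 members searched, and nothing follows from them about shared control.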

How the data were processed

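RNA extracted with Trizol was labelled with biotin and hybridised to Affymetrix arrays, per the labels' protocols. What the authors deposited are MAS5 intensity signals for each probe set, which the submitters' processing notes name; the MAS5 version, genome build and detection calls are not given in the sources used here. Each of the 6 arrays had a 2% trimmed mean of 150, so they had been scaled before deposit. Of 45101 probe sets 64 were controls; 34945 had 1 gene symbol, 932 several and 9160 none. Members and lists were chosen with earlier results of these data known.

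Signals were transformed as log2(signal + 16). Probe sets averaging at least the 40th percentile (4.91), 27022 in all, were fitted with limma 3.58.1 in R 4.3.3 (eBayes with an intensity trend), iTreg minus WT Treg, two-sided, with Benjamini-Hochberg adjustment at 0.05; the fit was tested on simulated data. Each probe set was kept apart. Named were all members, up to 3 probe sets of smallest p per family, GITR and interferon list, and the 3 most alike genes per member (predicted genes left out); S100a9, Lyz2, Foxp3 and other markers were named after their values were seen. Signals per array stand in for depth, and the number of arrays limits precision. Windows before gene starts were aligned with Biopython 1.88. Alternatives were pseudocounts, scaling, filters, variance models, probe set choice, a replicate block and arrays left out.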

Additional observations from a re-analysis of the deposited data

How the results depend on the processing

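Over 19 alternatives 0 member probe sets were called. Both Ms4a4c probe sets kept a positive difference, from 1.53 to 2.35, wherever they were included; a choice of 1 probe set per gene or of names without an _s_at or _x_at ending leaves one or both out. The sign turned in 5 alternatives for Ms4a4b 1425325_at, 3 for Ms4a6c 1450234_at, 2 each for Ms4a4d, Ms4a6b 1418826_at and Ms4a6d 1419599_s_at, and 1 for Ms4a6d 1419598_at. The median over the members stayed between 0.021 and 0.27, 0.021 being without iTreg replicate 1.

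The count of probe sets called over the whole table, 7 (1 higher, 6 lower), was 2 with a pseudocount of 1, 2 with no filter, 12 with array weights, 3 with 1 probe set per gene, 3 with probe sets specific by name, 0 without both arrays with label doubts and 0 without both replicate 3 arrays; at an unadjusted p under 0.05 those last settings gave 1253 and 1403. Without single arrays it ranged from 0 to 9: 0 without iTreg replicate 1, WT replicate 2 or WT replicate 3, 1 without iTreg replicate 2, 2 without iTreg replicate 3 and 9 without WT replicate 1. With the replicate number as a block 3 were called. Deviations of same-numbered arrays from their group means correlated at 0.191, 0.0365 and 0.118, and each array correlated best with its own number, a hint from the data that is no pairing by design. The cause of these changes was not tested. Calls among other MS4A, GITR, interferon and lineage marker probe sets stayed at 0 in every alternative run by limma, with 6 to 18 at an unadjusted p under 0.05 outside the MS4A list.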
